A study of Drosophila melanogaster with 2 samples.

Results

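The peaks described here were the ChIP-seq peaks of the CG15710-GFP fusion protein that lay on chromosome 4 or in the pericentric ends of arms 2L, 3L, 3R and X of Drosophila melanogaster. ChIP-seq sequences the DNA that is precipitated with a protein, and a peak is a stretch where that DNA piles up, with its summit at the highest point. Members were chosen by position alone: every summit of the pooled list on chromosome 4, and every summit proximal to the limits chr2L 22160000, chr3L 22926900, chr3R 4552934 and chrX 22628490 (genome build dm6). This gave 238 of the 30000 pooled peaks. Chromosome 4 held 106 of them, the 3R block 61, the X block 37, the 3L block 19 and the 2L block 15. They were compared with the 24388 pooled peaks on the rest of 2L, 3L, 3R and X, while the 5374 peaks of 2R lay outside the rule.

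The animals were whole pupae of 24 hours, males and females pooled, from a transgenic line that stably expressed CG15710 with GFP at its C-terminus, and chromatin was sonicated. The sample descriptions give an antibody to GFP for the precipitation, whereas the antibody field of the labels names CG15710, so the labels do not settle which was used. The samples formed 1 group of 2 biological replicates (numbers 1 and 3), and no group without the transgene was analysed here. The labels do not say what drives the transgene, and a whole pupa mixes many tissues, so a peak cannot be placed in a cell type. The deposited lists were 1 per replicate, 1 for the pooled replicates and 1 of 8483 peaks that passed an irreproducible discovery rate (IDR) step, which were the 8483 pooled peaks of highest signal. With a single group, no test over samples was possible. Values are given with 95% exact Clopper-Pearson intervals, which cover the counting of peaks or genes only, and beside each replicate's own list.

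Pericentric DNA is rich in repeats and transposable elements, is packed as heterochromatin for most of its length, and holds few genes. Some of those genes are expressed there, and a few, such as lt, are known to lose expression when moved away from heterochromatin. Chromosome 4 is a small chromosome whose genes lie among repeats in a chromatin that carries both heterochromatin proteins and marks of active transcription.

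The sequences at the centre of a few named peaks are shown because the members differed from other peaks in base composition around the summit. Each is the plus strand of dm6 at the summit with 50 bp to each side, read from the RefSeq copy of the assembly. Capitals mark runs of 6 or more A and T. They are the 3 strongest promoter peaks of chromosome 4 (PlexA, Sox102F and gw), the peaks at 4 ribosomal protein genes, the strongest peaks of 3R and X (CG14636 and CG42346), the member summit of highest A+T content (Suv3), and, from outside the regions, the strongest peak of the rest (CG14100). For PlexA and CG14100 the window of the same length centred 300 bp to the left follows as the flank.
PlexA at chr4:1027237-1027337: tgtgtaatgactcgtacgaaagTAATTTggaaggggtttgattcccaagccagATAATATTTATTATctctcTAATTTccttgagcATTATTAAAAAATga
PlexA flank at chr4:1026937-1027037: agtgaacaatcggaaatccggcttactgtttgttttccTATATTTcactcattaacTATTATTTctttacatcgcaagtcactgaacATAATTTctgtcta
Sox102F at chr4:807557-807657: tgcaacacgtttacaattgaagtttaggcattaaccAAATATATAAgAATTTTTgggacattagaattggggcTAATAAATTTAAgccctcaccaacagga
gw at chr4:660044-660144: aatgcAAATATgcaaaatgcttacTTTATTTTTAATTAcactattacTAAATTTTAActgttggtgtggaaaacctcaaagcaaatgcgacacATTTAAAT
RpS3A at chr4:67229-67329: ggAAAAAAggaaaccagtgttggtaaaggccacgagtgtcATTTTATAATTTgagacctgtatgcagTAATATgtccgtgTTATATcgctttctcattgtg
RpL5 at chr2L:22536619-22536719: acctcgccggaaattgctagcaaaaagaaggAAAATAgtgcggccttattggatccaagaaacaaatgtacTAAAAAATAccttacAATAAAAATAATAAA
RpL10 at chr3L:23095447-23095547: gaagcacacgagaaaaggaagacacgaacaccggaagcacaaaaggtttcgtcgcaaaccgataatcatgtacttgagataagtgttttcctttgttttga
RpL15 at chr3L:27267202-27267302: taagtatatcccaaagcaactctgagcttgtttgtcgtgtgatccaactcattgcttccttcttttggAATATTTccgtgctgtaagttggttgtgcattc
CG14636 at chr3R:4214213-4214313: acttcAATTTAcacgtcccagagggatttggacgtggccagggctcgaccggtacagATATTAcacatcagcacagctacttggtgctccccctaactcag
Suv3 at chr3R:4311372-4311472: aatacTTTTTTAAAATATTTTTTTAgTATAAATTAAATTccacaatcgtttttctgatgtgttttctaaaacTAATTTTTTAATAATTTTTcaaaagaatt
CG42346 at chrX:22833678-22833778: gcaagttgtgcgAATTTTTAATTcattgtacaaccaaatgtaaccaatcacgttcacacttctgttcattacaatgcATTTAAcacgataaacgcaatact
CG14100 at chr3L:19590564-19590664: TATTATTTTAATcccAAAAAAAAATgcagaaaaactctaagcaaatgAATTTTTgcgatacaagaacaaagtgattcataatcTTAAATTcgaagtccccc
CG14100 flank at chr3L:19590264-19590364: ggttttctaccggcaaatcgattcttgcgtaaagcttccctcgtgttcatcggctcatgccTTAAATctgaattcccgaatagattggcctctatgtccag

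In the summit sequence of CG14100 A and T made up 71.3% of bases, against 53.5% in its flank. In that of PlexA they made up 68.3%, against 67.3% in its flank. The CG14636 summit, the strongest of all members, held 47.5% A+T, the Suv3 summit 85.1%, and the ribosomal protein summits between 58.4% (RpL10) and 67.3% (RpL5).

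The regions carried the marks of their label, though unevenly. RefSeq writes repeats in lower case (soft-masked), and such bases made up 40.3% of the blocks and 28.1% of chromosome 4, against 17.5% of the rest of the arms. Annotated transposable elements covered 15.0% of the blocks, 25.1% of chromosome 4 and 4.06% of the rest. The blocks held 150 protein-coding genes, or 12.6 per Mb, chromosome 4 held 80 (60.1 per Mb) and the rest 10863 (114.1 per Mb). Within the blocks the peaks gathered at the edge that faces the euchromatic arm. Of the 132 block members, 108 lay within 500 kb of the limit, at 54.0 per Mb, and 24 lay deeper, at 2.43 per Mb. All 37 members of the X block and 59 of the 61 of the 3R block were in that outer 500 kb, where soft-masked bases made up 26.0% (X) and 24.2% (3R). In contrast, 15 of the 19 members of the 3L block and 7 of the 15 of the 2L block lay deeper. The members nearest the limits had signals of 103.4 (2L), 86.1 (3L), 580.7 (3R) and 317.4 (X), and the nearest peaks outside had 78.9, 508.9, 670.3 and 55.6.

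Per base, the regions held few peaks. The density was 18.0 summits per Mb of sequence that is not N, against 256.3 in the rest, a ratio of 0.0704 (0.0617 to 0.0800). On chromosome 4 it was 79.6 per Mb (ratio 0.311, 0.254 to 0.376) and in the blocks 11.1 per Mb (ratio 0.0434, 0.0363 to 0.0515). Among the blocks it was highest on X, at 40.6 per Mb, followed by 3R at 13.5, 2L at 11.1 and 3L at 3.75. Counting only bases and summits that are not soft-masked, the ratio over all members was 0.0989. Among the blocks the soft-masked share was lowest in X (35.8%), the densest block, but it was 42.2% in 3R and 39.3% in 3L. Over all blocks the outer parts were less masked than the deep parts (32.3% against 41.9%), and so they were in 3R, X and 3L. In 2L the outer part was more masked than the deep part (43.2% against 39.3%) and denser (16.0 against 8.20 per Mb). How uniquely reads can be placed in these sequences was not measured, and soft-masking does not measure it. Few peaks per Mb therefore need not mean little binding. The part of repeats in the low density was not tested beyond these values. Long stretches held no pooled summit: the first 3R summit lay at position 3734106, and the longest gap between 3L summits was 1068783 bp (26014358 to 27083141). On chromosome 4 the longest gap was 132968 bp, from 527126 to 660094. The replicate lists did hold peaks there: replicate 1 had promoter summits at Tdg, Pur-alpha, ND-49, Ephrin, Eph, mav and Ekar in the chromosome 4 gap. Replicate 3 had them at Parp1 and Alg-2 before the first pooled 3R summit and at CG42598 in the 3L gap.

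**Figure D1:**
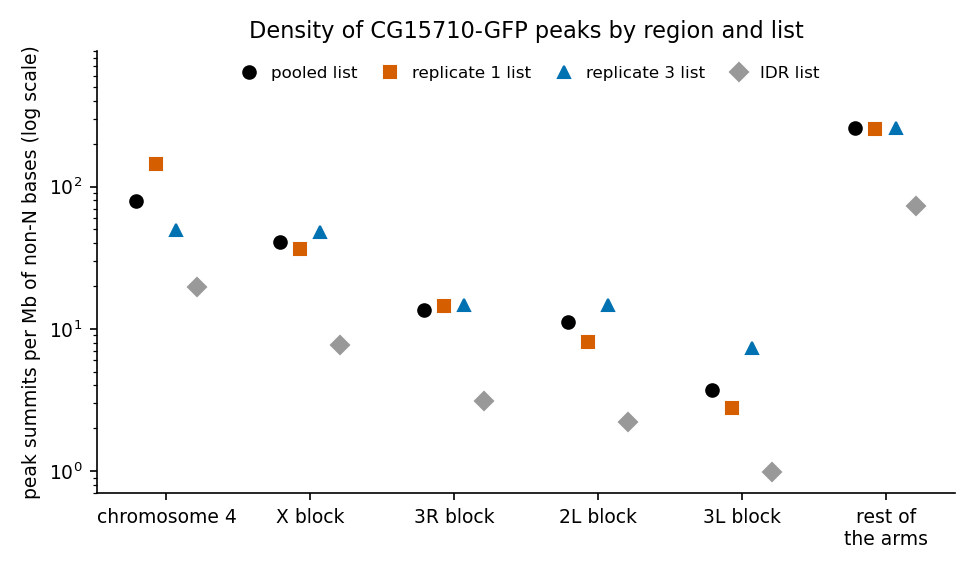
Peak summits per Mb of non-N bases (log axis) on chromosome 4, in the 4 pericentric blocks and in the rest of the same arms, with 1 point per list. The rest lies near 256 per Mb in the pooled list, chromosome 4 at 79.6 and the 3L block at 3.75, and the replicate lists differ most on chromosome 4.

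Per gene, the regions were closer to the rest of the arms than per base. A pooled summit lay within 500 bp of a transcription start site (TSS) of 32 of the 80 chromosome 4 genes (40%, 29.2 to 51.6) and 58 of the 150 block genes (38.7%, 30.8 to 47.0). Over all 13945 protein-coding genes of the 6 arms the share was 47%, and over the rest of the same arms 47.5%. The latter lay inside the interval for chromosome 4 and just above that for the blocks. For IDR summits the counts were 18 of 80 (22.5%, 13.9 to 33.2) and 26 of 150 (17.3%, 11.6 to 24.4), against 24.6% of all coding genes and 25.1% of the rest. There were 1.03 pooled peaks per coding gene in the regions and 2.25 in the rest.

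The replicates disagreed on chromosome 4. In replicate 1, 51 of its 80 genes had a promoter summit (63.8%, 52.2 to 74.2), above the 48.5% of the rest in that list. In replicate 3 it was 22 of 80 (27.5%, 18.1 to 38.6), below the 46.9% of the rest. In the blocks the counts were 58 of 150 in replicate 1 (38.7%) and 68 of 150 in replicate 3 (45.3%). That sum joined blocks that differed: in 3L, 9 of 40 genes had a summit in replicate 1 (22.5%) and 18 of 40 in replicate 3 (45%), and in 2L, 7 and 12 of 21. The pooled 3L share was 22.5% (10.8 to 38.5), below that of the rest. Whether chromosome 4 genes had a summit more or less often than others thus depended on the replicate.

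**Figure D2:**
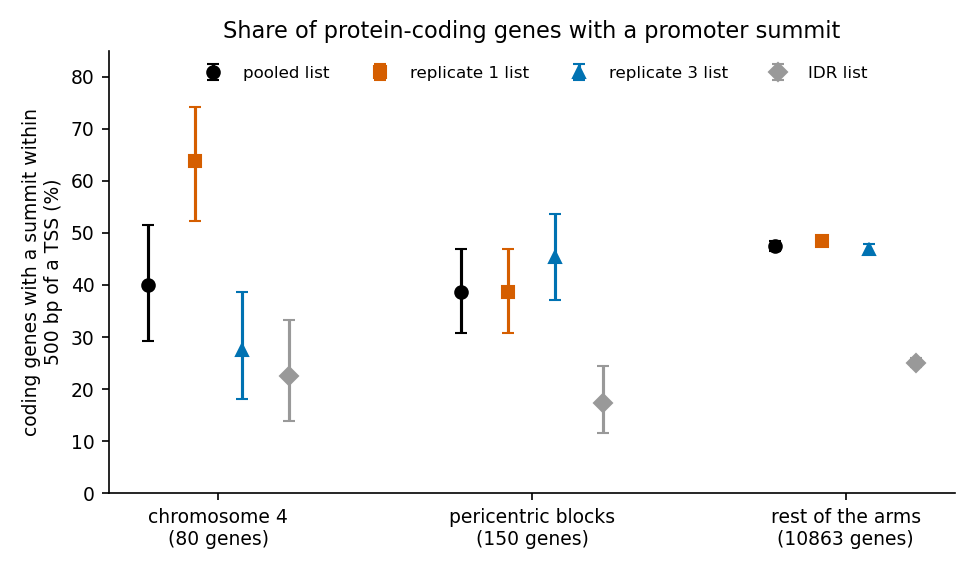
Share of protein-coding genes (percent) with a summit within 500 bp of a TSS, by region and list, with 95% exact intervals as bars. On chromosome 4 replicate 1 stands at 63.8% and replicate 3 at 27.5%, while the rest of the arms lies between 46.9% and 48.5% in these lists.

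Most members lay at promoters. A TSS of any annotated gene was within 500 bp of 132 of the 238 summits (55.5%, 48.9 to 61.9), against 28.4% in the rest. Introns held 62 (26.1%) against 45.0%, intergenic sequence 24 (10.1%) against 20.8%, and coding exons outside promoters 8 (3.36%) against 2.20%. With TSSs of protein-coding genes alone, which leaves out small RNA genes, the promoter shares were 48.7% and 25.4%. The share was 62.1% in the blocks (82 of 132) and 47.2% on chromosome 4 (50 of 106), and it differed between blocks. In the 2L block all 15 summits were at promoters, in the 3L block 13 of 19, in the 3R block 40 of 61 and in the X block 14 of 37 (37.8%), with 15 in introns. In replicate 3 the X share was 10 of 44 (22.7%, 11.5 to 37.8), against 26.0% of the rest in that list. Among IDR members 39 of 55 were (70.9%), against 35.5% of IDR peaks in the rest. Of the 35 IDR members whose nearest coding TSS was within 500 bp, 31 lay upstream of it (88.6%, 73.3 to 96.8), with a median of -107 bp. In the rest 78.2% did, with a median of -120 bp.

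Annotated transposable elements held few member summits, none of them an IDR peak. In these elements lay 9 of the 106 chromosome 4 summits (8.49%), 1 of the 132 block summits (0.758%) and 0.226% of those in the rest. Of these 10 members, 5 were in copies of INE-1, a short element that is abundant on chromosome 4, 2 in copies of 1360, 2 in copies of Tc1 and 1 in a copy of S. Their highest signal was 85.4, 6 were overlapped in replicate 1 only, 2 in replicate 3 only and 1 in both. Summits on a soft-masked base of any kind made up 29.2% on chromosome 4, close to the 28.1% of its bases that are soft-masked. They made up 9.85% in the blocks, where 40.3% of bases are, and 21.5% in the rest, where 17.5% are. In replicate 1 the block count was 16 of 123 (interval 7.62% to 20.3%), against 21.3% of the rest in that list. In replicate 3 it was 38 of 168 (22.6%, 16.5 to 29.7), against 20.7% of the rest. The block share was thus not below that of the rest in replicate 3. In both replicate lists it stayed below the 40.3% of block bases that are soft-masked. Among the IDR peaks of chromosome 4, 8 of 26 summits lay on such a base (30.8%, 14.3 to 51.8).

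The signals of the members covered nearly the range of other peaks, except at the top. The signal is the authors' own value for each peak, whose scale the labels leave out, and is comparable only within a list. The pooled median was 73.2 for members (lowest 28.0, highest 1308) and 77.7 for the rest, whose highest was 9376. IDR peaks made up 55 of the 238 members (23.1%, 17.9 to 29.0), against 28.3% of all pooled peaks and 28.6% of the rest. Among the 1000 strongest pooled peaks were 2 members (0.2%), and among the 5000 strongest 16 (0.32%). Members made up 0.793% of all pooled peaks. The median was 81.6 on chromosome 4 and 69.9 in the blocks. Within the IDR list the members had a median of 218.6 and the rest 330.0.

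**Figure D3:**
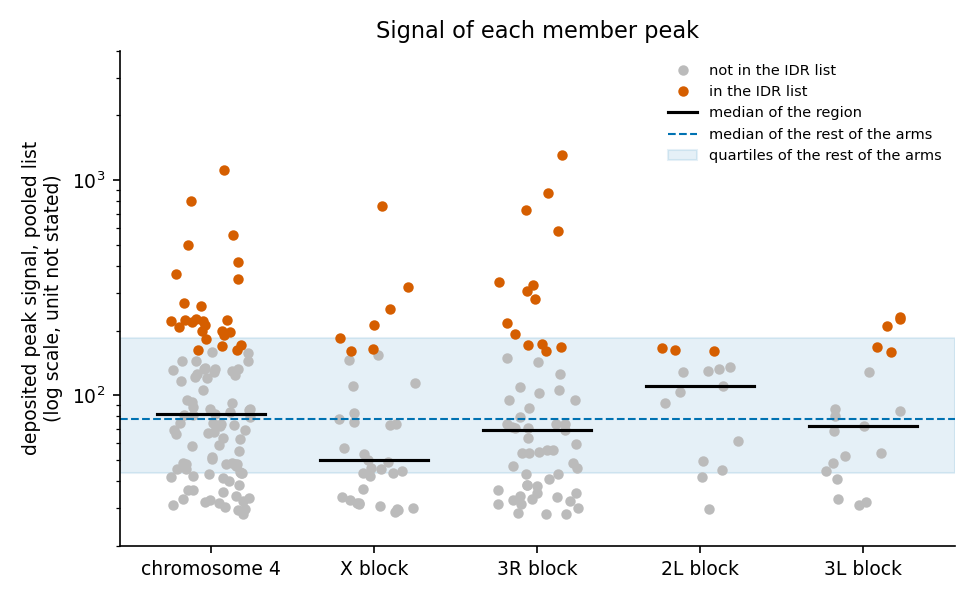
Deposited signal of each of the 238 member peaks (log axis, scale not stated), by region, with IDR peaks in orange, the median of each region as a black bar, and the median and quartiles of the rest of the arms in blue. The highest points are at 1308 (3R) and 1119 (chromosome 4), and no 2L or 3L member is above 231.

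On chromosome 4 the strongest peak was at -186 bp from a TSS of PlexA (FBgn0025741), the gene for a semaphorin receptor in axon guidance (chr4, 1027111 to 1027457, signal 1119, rank 909 of 30000). Its signal was 483.9 in replicate 1 (rank 1508) and 639.2 in replicate 3 (rank 450), each with a summit 1 bp from the pooled one. The site was thus among the stronger peaks of both lists. The second was in the 3′ UTR of Cals (FBgn0039928), which encodes the transmembrane protein calsyntenin (signal 799.2, with 518.2 and rank 1383 in replicate 1 and 281.9 and rank 1738 in replicate 3). A promoter peak of Sox102F (FBgn0039938), a gene for an HMG-box transcription factor, had a signal of 554.3 at -260 bp, with 345.5 in replicate 1 and 220.5 in replicate 3 (ranks 2333 and 2441). Both replicates placed it at a similar rank. An intronic peak of the same gene had 414.8 and a replicate 1 rank of 2656. The replicate 3 peak that overlapped it ranked 7505 and had its summit 250 bp away, nearer to the next intronic member (218.6), which it also overlapped.

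The fourth peak of chromosome 4 showed how a site can differ between the replicates. At gw (FBgn0051992), which encodes the GW182 protein of microRNA silencing, a summit at -111 bp had a signal of 502.3, and 334.7 with rank 2422 in replicate 1. No replicate 3 peak overlapped it, and the nearest replicate 3 summit lay 668 bp away. That summit matched the second gw promoter peak, which lay at -149 bp from another gw TSS (signal 199.9), 5 bp from a replicate 3 summit of rank 4967 and 1 bp from a replicate 1 summit of rank 9674. Replicate 1 thus had summits at both gw start sites and replicate 3 at the second alone.

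Asator, the gene for a tau-tubulin kinase, had an intergenic summit at -536 bp (signal 366.7, just outside the promoter window) and an intronic one of 212.1. RpS3A, for a protein of the small ribosomal subunit, had a summit at -72 bp (signal 349.0, with 172.1 in replicate 1 and 215.7 in replicate 3). A peak shared by CG46466 and Slip1 had a signal of 269.5. Upstream of ci, which encodes the transcription factor of the Hedgehog pathway, 3 IDR summits outside its annotated body lay at -3451, -2852 and -1885 bp (signals 259.5, 208.4 and 170.6), and a promoter summit at -82 bp had 169.6. Only 2 of the 26 IDR summits of chromosome 4 were intergenic, the Asator summit of 366.7 among them. Some of the 3 upstream summits therefore lay in or within 500 bp of another annotated gene. A summit at 23 bp of apolpp, the gene for the apolipophorin precursor that carries lipids in the haemolymph, was shared with Zyx, for the focal adhesion protein zyxin (signal 225.7).

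In the 3R block the strongest peak of all members lay in an intron of CG14636 and of the overlapping gene aux, for the clathrin cofactor auxilin (chr3R, 4214085 to 4214422, signal 1308, rank 680, 1051 bp downstream of a CG14636 TSS). Its signal was 682.0 in replicate 1 (rank 920) and 627.5 in replicate 3 (rank 469). The next were a peak within 500 bp of the antisense RNA gene CR45999 (signal 875.2) and one at -119 bp of DhpD, for a dihydropterin deaminase (725.5). An intronic peak of CG31523 had a signal of 580.7. Further down were shared promoter peaks of eIF3a and CG1074 (324.7), where eIF3a is a translation initiation factor, and of Suv3 and Vps24 (279.6), for a mitochondrial RNA helicase and an ESCRT-III subunit. The ranks of the 5 peaks other than CG14636 ranged from 1308 to 4738 in replicate 1 and from 1437 to 5510 in replicate 3. A peak at Lipt2 in this block, with a signal above that of eIF3a, had no overlapping replicate 1 peak. Of the 14 IDR peaks of the block, 12 overlapped a peak in each replicate.

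In the X block the strongest peak, with a signal of 761.9, lay inside CG42346 and the overlapping gene fog, for the secreted signal of cell shape change in gastrulation, close to the microRNA gene mir-2491. Its signal was 496.1 in replicate 1 (rank 1453) and 260.3 in replicate 3 (rank 1947). Cda4, the gene for a chitin deacetylase-like protein, was the nearest coding gene of 2 IDR peaks. The first lay in a Cda4 intron, with a signal of 317.4 and ranks of 4607 and 4467. The second, at -41140 bp and inside no coding gene, had 252.9 and rank 5998 in replicate 3 but no overlapping peak in replicate 1. Promoter peaks of CG17167 (212.2) and su(f) (183.8), for a subunit of the mRNA cleavage stimulation factor, followed.

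The strongest peaks of the 2L and 3L blocks were weaker than those of the other regions, and the 4 strongest of each lay at promoters. Their medians were not lower than those of the other blocks: 110.3 in 2L and 72.4 in 3L, against 69.2 in 3R and 49.9 in X. The chromosome 4 median of 81.6 lay between those of 2L and 3L. In 3L the highest were at RpL10 (230.6, -26 bp), MED21, for a Mediator subunit (225.6, -65 bp), RpL15 (209.4, -3 bp) and vtd, for the cohesin subunit Rad21 (167.4, -130 bp). In 2L they were at CG40006 (166.2, -301 bp), RpL5 (162.4, 18 bp), Nubpl, for an assembly factor of respiratory complex I (159.9, -82 bp), and Clamp, for a zinc finger protein of dosage compensation (135.1). Of these 8 peaks, 6 had an overlapping replicate 1 peak and all 8 an overlapping replicate 3 peak. MED21 ranked 10848 in replicate 1 and 3724 in replicate 3, and RpL15 ranked 9603 and 4337.

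Ribosomal protein genes of the regions had promoter summits throughout. All 5 cytoplasmic ribosomal protein genes with symbols beginning RpL or RpS (RpL5, RpL10, RpL15, RpL21 and RpS3A) had a summit within 500 bp of a TSS in the pooled list and in each replicate list, and 4 had an IDR summit. In the rest of the arms 56 of 62 such genes had a pooled summit and 47 an IDR summit. The RpL21 summit at -5 bp had a signal of 110.3 and was not an IDR peak. This set was formed by symbol after the data were seen, and a high share at ribosomal protein genes was known for these lists beforehand, so it is no independent support.

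The listed gene groups had summits at part of their members. Of 18 listed genes for transcription factors and cofactors in the regions, 9 had a pooled and 5 an IDR summit, led by Sox102F, ey (the Pax6 eye selector gene, 224.4, -30 bp) and su(f). No list held a promoter summit for toy, sv, onecut, pho, dati, fd102C or scro. Of 20 signalling and synapse genes, 9 had a pooled and 6 an IDR summit, led by PlexA, Zyx and PlexB (221.2, -83 bp). In this group 13 genes had a summit in replicate 1 and 7 in replicate 3, and Eph, Ephrin, Crk, Ank and PMCA had one in replicate 1 but in no other list. Of 13 genes of trafficking and other housekeeping functions, 5 had a pooled and 4 an IDR summit, led by gw, Slip1 and Arl4 (222.7, -109 bp). Of 5 translation genes, RpS3A, RpL5 and RpL15 had pooled and IDR summits, eIF4B had one in replicate 3 alone and eIF4G1 in no list. Of 4 steroid and lipid genes, apolpp alone had a summit. The ecdysone synthesis genes nvd (3L block) and spok (3R block) had none in any list. Read against the 47% of all coding genes, the pooled counts were 9 of 18, 9 of 20, 5 of 13, 3 of 5 and 1 of 4. The IDR counts, to be read against 24.6%, were 5 of 18, 6 of 20, 4 of 13, 3 of 5 and 1 of 4. In the rest of the arms 48.5% of coding genes had a summit in replicate 1 and 46.9% in replicate 3. The genes stnA and stnB, counted separately, have the same annotated coordinates and the same strongest summit.

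Between the replicate lists, the members were less alike than other peaks. Replicate 1 held 191 chromosome 4 peaks and replicate 3 held 66, while the blocks held 123 and 168. The chromosome 4 density was therefore 0.562 times that of the rest in replicate 1 (0.485 to 0.648) and 0.193 times in replicate 3 (0.149 to 0.245). The 3L block went the other way, with 14 peaks in replicate 1 and 37 in replicate 3. Each replicate list held 30000 peaks, so these are shares of lists of equal length. The lists give no read depth to set beside these counts. Among each replicate's 8483 strongest peaks, chromosome 4 had 36 in replicate 1 and 21 in replicate 3, and the blocks 18 and 46.

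Of the pooled members, 206 (86.6%) were overlapped by at least 1 bp in replicate 1, against 88.5% of all pooled peaks. In replicate 3 it was 167 (70.2%) against 81%, and in both replicates 145 (60.9%, 54.4 to 67.2) against 72.3%. On chromosome 4 the shares were 95.3% in replicate 1 and 62.3% in replicate 3, and 37 of the 106 peaks were overlapped in replicate 1 only against 2 in replicate 3 only. In the blocks they were 79.5% and 76.5%. Of the 155 chromosome 4 peaks of replicate 1 below its 8483 strongest, 42 overlapped a replicate 3 peak (27.1%), and in the rest of the arms 65.1% of such peaks did.

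Even in the IDR list the overlap was lower than elsewhere. Of the 55 IDR members 46 overlapped a peak in each replicate (83.6%, 71.2 to 92.2), against 97% of IDR peaks in the rest. The 2 sets were not matched for signal, whose median was 218.6 for IDR members and 330.0 for the rest. In the rest, 97.3% of the 8483-strongest class of replicate 1 peaks overlapped a replicate 3 peak, and 65.1% of weaker ones did. The 4 without a replicate 1 peak were in the blocks: Lipt2, for a lipoyl transferase (335.1), the second Cda4 peak, RpL10 and vtd. The RpL10 peak was 127 bp wide, and a replicate 1 summit lay 140 bp from its own. The 5 without a replicate 3 peak were gw, CG11360 (198.8), CG31998 (191.6) and myo, for a ligand of the TGF-beta family (182.5), on chromosome 4, and tub, for an adaptor of Toll signalling (193.1), in the 3R block.

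The ranks of matched members were spread more widely between the replicates than those of other peaks. Over 117 distinct pairs of overlapping replicate peaks Spearman's rho was 0.611, and over 15445 pairs in the rest 0.832. This is a description across peaks, which share 2 libraries. All 8 pairs of the 2L block and 7 of the 8 of the 3L block had the higher percentile in replicate 3, by a median of 14.2 and 16.4 points. On chromosome 4, 23 of 51 did. The largest single differences included the promoter of zfh2, a zinc finger and homeodomain gene, at rank 7653 in replicate 1 and 28579 in replicate 3, and that of Gel, for the actin-binding protein gelsolin, at 10835 and 26478. In the other direction were a noncoding exon upstream of ci (23035 and 5559), a CG31523 promoter (25816 and 11018) and the promoter shared by abs, for a DEAD-box RNA helicase, and CG14641 (21923 and 7197). The replicate 3 summits of the zfh2 and ci pairs lay 310 and 215 bp from the pooled ones. Each was nearer to a neighbouring member, at 91 bp for zfh2 and 16 bp for ci, so these differences compare neighbouring summits.

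**Figure D4:**
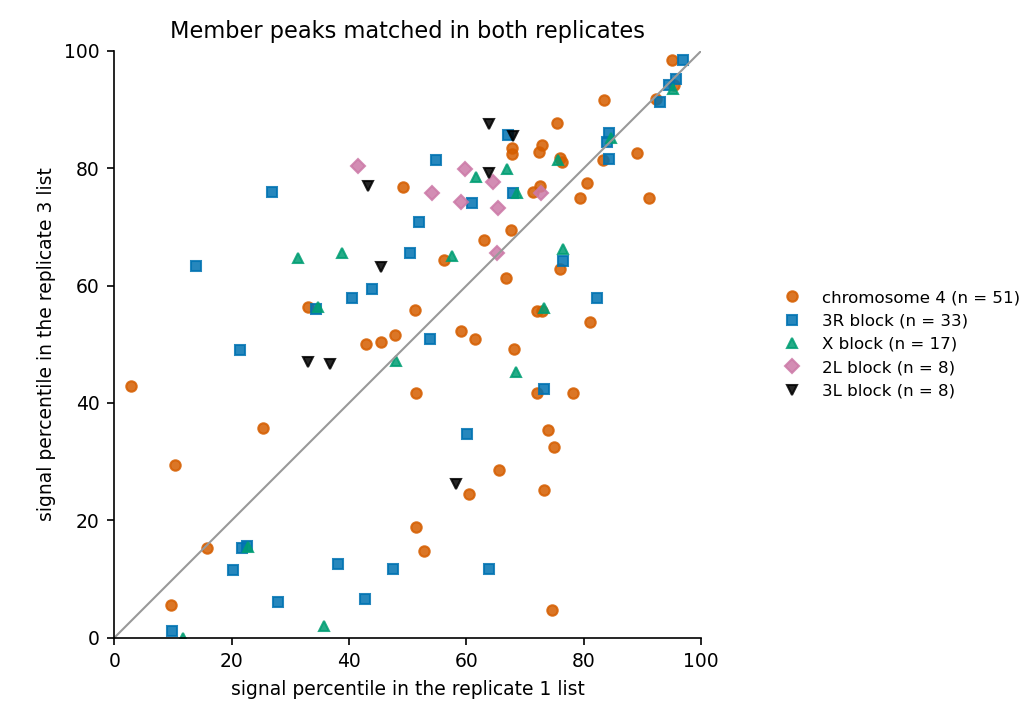
Signal percentile (100 is the strongest peak of a list) of 117 member peaks matched in both replicates, replicate 1 on the horizontal and replicate 3 on the vertical axis, with the line of equality. The strongest members lie near the line, all 8 pairs of the 2L block lie above it, and chromosome 4 pairs fall on both sides (23 of 51 above).

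The base composition of the members differed from that of other peaks in its shape. In the rest of the arms summits were richer in A and T than the sequence around them: the mean was 61.8% within 50 bp of the summit and 56.5% in the flank 300 bp to the left, and the summit was the richer in 61.7% of peaks. In the members the means were 61.7% ± 9.57 (SD over 238 peaks) and 62.0% ± 10.3, and the summit was the richer in 105 (44.1%, 37.7 to 50.7). The near equality of the summit means joined parts on either side of it: chromosome 4 summits held 64.7%, block summits 59.2% and those of the 3R block 55.6%. Over all bases, A and T made up 64.8% of chromosome 4, 60.1% of the blocks and 57.6% of the rest.

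In the IDR list the members' summits were richer than their flanks on average, but by less than those of the rest, and their summits held less A+T. IDR peaks of the rest held 68.1% at the summit and 54.7% in the flank, with the summit the richer in 82.4%. IDR members held 64.6% and 61.9%, with the summit the richer in 33 of 55 (60%, 45.9 to 73.0). In the blocks the IDR values were 63.3% and 58.1%, and on chromosome 4 they were 66.0% and 66.2%. The flank to the right gave 61.8% for the pooled members and 56.3% for the rest. Among promoter summits alone, to set like beside like, members held 62.1% and 62.4% in the flank, and the rest 60.8% and 56.9%. In replicate 1 the summit was the richer in 38.2% of members and in replicate 3 in 48.3%, against 59.8% and 64.4% of the rest. The X block differed by flank and list. Its pooled summits held 60.9%, its left flanks 60.1% and its right flanks 54.0%, and 26 of 37 summits were richer than the right flank. Against the left flank it was 18 of 37 in the pooled list, 12 of 33 in replicate 1 and 28 of 44 in replicate 3.

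**Figure D5:**
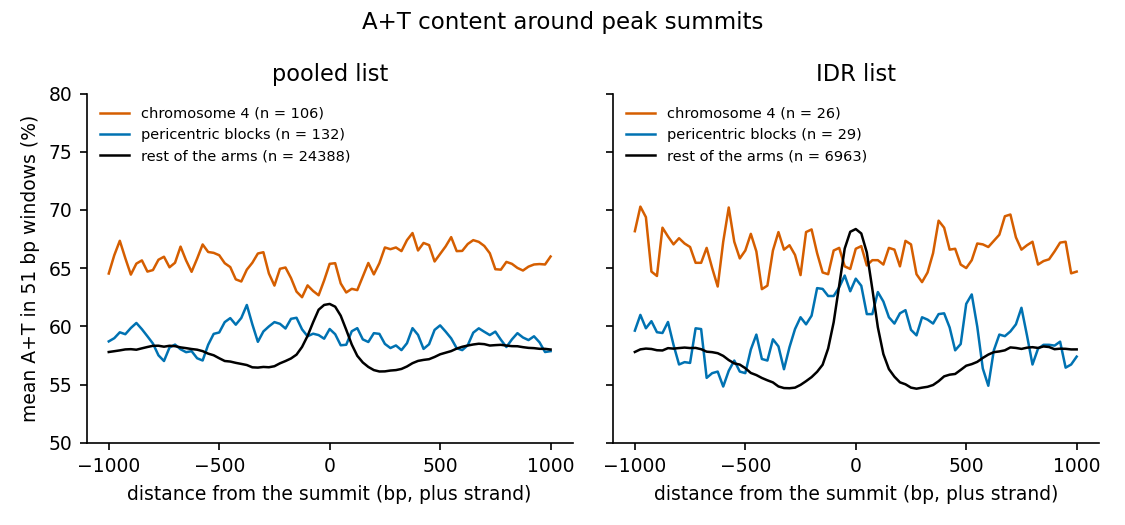
Mean A+T (percent, 51 bp windows) by distance from the summit in bp, for chromosome 4, the pericentric blocks and the rest of the arms, in the pooled list (left) and the IDR list (right). The rest shows a central rise, from 54.7% at 300 bp to 68.4% at the summit in the IDR list, while chromosome 4 has 67.0% and 66.7% and the blocks 58.2% and 64.1% at those points (300 bp to the left).

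Short motifs also differed in share. They were searched on both strands within 50 bp of each summit, and a match is only a description of the letters. CGATA, the core of sites of the insulator protein BEAF-32 and also part of the DRE (TATCGATA), was in 46 of 238 member summits (19.3%, 14.5 to 24.9) and 12.1% of the rest. In their flanks the shares were 15.1% and 11.3%. Among promoter summits it was in 22.7% of members (15.9 to 30.8) and 18.0% of the rest, a value inside the members' interval. Among IDR promoter summits it was in 14 of 39 (35.9%, 21.2 to 52.8) against 16.1%. Of the sequences shown, those of RpS3A, RpL10, CG42346 and CG14100 hold it.

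For runs of A the members had the lower share. AAAAAA or its complement was in 19.7% of member summits (14.9 to 25.4) and 26.1% of their flanks, whereas in the rest it was in 27.1% of summits and 20% of flanks. With 100 bp to each side of the summit, the difference between members and rest was -2.02 points. Among IDR peaks it was in 9 of 55 members (16.4%, 7.77 to 28.8) and 32.8% of the rest. GAGAG, the core of GAGA factor sites, was in 13.9% of member summits and 7.98% of their flanks, against 12.3% and 13.9% in the rest. GGTCACAC was in 0 of 238 member summits (upper bound 1.54%) and 0.668% of the rest, a difference this number of members cannot resolve. The satellite unit AATAT repeated in tandem was in 2 of 238 member summits, with no share of the rest set beside it here. AAGAG in tandem was in 0, and in 1 with 100 bp to each side. Among the 6-letter words, the largest excess of IDR member summits over their flanks was for ACAATA, in 23.6% against 3.64%, where the rest had 11.5% and 6.49%. That word was picked as the top of a ranking of 2080, so its excess is a description only.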

How the data were processed

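The authors deposited 4 narrowPeak lists on dm6. Per the descriptions deposited with the lists, the replicate and pooled lists were made from alignments plus an undescribed input, and the IDR list from the other 3. Not given in the sources used here were the aligner, peak caller and IDR threshold. The deposited signal has no stated scale and was used only to rank peaks within a list. The deposited −log10 q-value was capped and was not used for ranking. No read counts are in the lists, so depth is unknown.

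Summits were start plus column 10. Genes and transposable elements came from Ensembl release 115 (the dm6 assembly), sequence and soft-masking from the RefSeq copy. Classes were assigned in the order promoter (500 bp from any TSS), UTR or exon, intron, intergenic. Python 3.11.15, pandas 2.3.3, numpy 2.4.6 and scipy 1.17.1 were used. No p-value was computed, since 1 group gives no test over samples. The code was tested on simulated data.

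Named were the 10 strongest peaks of chromosome 4, the 4 strongest of each block, the 3 strongest of each listed gene group, 5 members with the largest percentile difference, and IDR members lacking a replicate peak (all 9, though the rule named 5). The eIF3a, Suv3 and RpL21 peaks, second peaks of named genes, the ribosomal set and listed genes without summits were named after their values were seen. Members, lists and motifs were chosen with earlier results of these data known. Alternatives were the IDR list, each replicate alone, other windows, overlaps, limits and base masks. The flank contrast and its alternatives, the merged peaks, the coding TSS window and the outer and deep block parts were added after seeing the data.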

Additional observations from a re-analysis of the deposited data

How the results depend on the processing

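No test was made, so a change is judged against the spread between the replicate lists or the counting interval. The density ratio (0.0704) stayed below 1 in every alternative run. It was 0.069 to 0.0931 with each replicate alone, 0.0989 without soft-masked bases, 0.311 on chromosome 4, 0.0434 in the blocks, and 0.145 or 0.0461 with the limits moved 500 kb toward the telomere or the centromere. The ratio of median signals (0.942) was 0.662 in the IDR list and 0.874 to 1.02 with each replicate alone, and it turned direction with replicate 3 alone (the upper value) and on chromosome 4 alone (1.05). The excess of promoter share (27.1 points) was 35.4 in the IDR list, 22.9 to 24 with each replicate alone, 22.6 and 30.3 with windows of 250 and 1000 bp, 23.3 with coding TSSs, 18.8 on chromosome 4, 33.7 in the blocks, and 31.8 and 42.5 in their outer and deep parts. The difference in median A+T at the summit (0 points) was -3.96 in the IDR list, 0 to 0.99 with each replicate alone, 1.99 with 100 bp to each side, 6.93 in the flank, 3.96 on chromosome 4 and -1.49 in the blocks. The difference in mean A+T of summit minus flank (-5.65 points) kept its direction in the alternatives run: -10.7 in the IDR list, -6.69 to -6.18 with each replicate alone, -4.16 at promoter summits and -7.2 with overlapping peaks merged. The A-run difference (-7.4 points) was -2.02 with 100 bp to each side and turned to 6.04 in the flank. The cause of these changes was not tested. Of the alternative values, some of them given above, 28 moved by more than the spread or interval, 3 turned direction and 21 moved by less. No paired analysis was possible because there is 1 group, whose 2 replicates carry the numbers 1 and 3. Depth is unknown, and lists of a fixed 30000 peaks do not show where binding ends.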
